A study of Arabidopsis thaliana with 4 samples.

Results

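The chloroplast genome of Arabidopsis thaliana carries the genes of the transfer RNAs that its own ribosomes use, and their recovery with dPPRrbcL is described here. Every gene interval of biotype tRNA in the chloroplast annotation was taken, except the trnS gene with the locus tag ArthCt117, which left 36 of the 130 annotated gene intervals. They comprise 29 distinct tRNAs, because 7 of them lie in the inverted repeat and occur in 2 copies, which were averaged. RNA was recovered by immunoprecipitation with an HA antibody from stroma, the soluble part of the chloroplast, of 2-week-old plants and was sequenced (RIP-seq). The 2 dPPRrbcL libraries came from plants that carry a transgene for dPPRrbcL, a protein named after the PPR family of RNA-binding proteins of plant organelles. The 2 WT libraries came from Col-0 plants without the transgene, taken through the same immunoprecipitation, and give its background. The labels state neither the promoter nor the line number of the transgene, nor whether replicates came from separate plants, so p-values measure the spread between these libraries, which may be technical. The design asked whether dPPRrbcL binds the mRNA of rbcL and which other RNAs come with it.

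A tRNA carries an amino acid to the ribosome and reads a codon of the mRNA with the 3 bases of its anticodon, after which each gene is named here. Plastid tRNAs are cut from longer precursors, often together with neighbouring genes, by enzymes that trim both ends. Some contain an intron, which must be removed before the tRNA can work: that of trnL-UAA belongs to group I and the others to group II. The genes trnI-GAU and trnA-UGC lie in the spacer of the rRNA operon and are transcribed with the 16S and 23S rRNAs. Mature tRNAs are short, folded and rich in modified bases, and standard RNA-seq library preparation recovers them poorly.

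The RNA-like strand of the genes on which the results turn most is shown first, read from the chloroplast sequence of TAIR10.1 with exons joined, 5′ to 3′, and with the anticodon in capitals. The first 6 genes are all those with an intron.
trnK-UUU: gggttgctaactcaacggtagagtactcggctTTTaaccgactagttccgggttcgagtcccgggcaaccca
trnG-UCC: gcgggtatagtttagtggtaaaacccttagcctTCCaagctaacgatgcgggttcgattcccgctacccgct
trnL-UAA: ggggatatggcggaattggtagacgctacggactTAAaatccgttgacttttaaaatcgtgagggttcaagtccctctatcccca
trnV-UAC: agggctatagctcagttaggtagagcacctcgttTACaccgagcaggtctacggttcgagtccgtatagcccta
trnI-GAU: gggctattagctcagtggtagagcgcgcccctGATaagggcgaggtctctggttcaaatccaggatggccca
trnA-UGC: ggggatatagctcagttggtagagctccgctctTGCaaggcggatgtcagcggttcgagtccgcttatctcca
The next 4 had the highest fitted changes among tRNAs without an intron, scaled to the library total.
trnR-UCU: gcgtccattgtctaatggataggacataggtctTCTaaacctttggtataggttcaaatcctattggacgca
trnS-GGA: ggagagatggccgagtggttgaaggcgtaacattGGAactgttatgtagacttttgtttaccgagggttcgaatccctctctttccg
trnP-UGG: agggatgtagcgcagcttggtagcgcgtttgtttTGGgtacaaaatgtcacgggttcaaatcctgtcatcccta
trnW-CCA: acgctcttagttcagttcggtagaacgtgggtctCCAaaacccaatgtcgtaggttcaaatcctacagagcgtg
In trnK-UUU, trnV-UAC, trnI-GAU and trnA-UGC the intron begins 2 bases after the anticodon. It follows base 35 in trnL-UAA, whose anticodon starts at that base and is therefore interrupted. In trnG-UCC it follows base 23, ahead of the anticodon, which starts at base 34. The introns are 2559 nt long in trnK-UUU, 714 in trnG-UCC, 512 in trnL-UAA, 599 in trnV-UAC, 729 in trnI-GAU and 801 in trnA-UGC. The trnS-GCU gene (7785 to 7872) is annotated on the plus strand, but a tRNA with its anticodon could be read only from the minus strand.

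The deposited values are the number of reads covering each position. Averaged over the genome, a position was covered by 12167 and 12762 reads in dPPRrbcL (replicates 1 and 2), against 12917 and 10373 reads in WT, and pairs of values below keep this order of replicates. The libraries differed in composition: rRNA genes took 90.3% and 91.4% of the summed coverage in dPPRrbcL, against 98.8% and 98.4% in WT. rbcL, the transcript the protein is named for, was covered 24398 and 22189 times per nucleotide in dPPRrbcL, against 674.5 and 777 in WT. Positions of tRNA exons without any read made up 0% and 3.30% in dPPRrbcL, against 37.4% and 28.1% in WT.

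tRNA exons formed a smaller part of the coverage outside rRNA genes in dPPRrbcL than in WT, and the trnI-GAU and trnA-UGC pair of the rRNA operon made up nearly all of it. Exons of the 29 tRNAs held 1.21% and 1.17% of the coverage outside rRNA genes in dPPRrbcL, against 1.91% and 1.90% in WT. The groups did not overlap, and the difference was -0.717 percentage points, with means of 1.19% ± 0.0324 in dPPRrbcL and 1.91% ± 0.0048 in WT (SD, n = 2 each; exact two-sided permutation p = 0.333, the smallest that 2 against 2 libraries allow). No library of the input RNA was used here, so the amount of an RNA in the stroma and its recovery by the immunoprecipitation cannot be told apart. The exons occupy 1.85% of the positions outside rRNA genes.

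trnI-GAU, an isoleucine tRNA, and trnA-UGC, an alanine tRNA, together held 1.09% and 1.04% of the coverage outside rRNA genes in dPPRrbcL, against 1.84% and 1.83% in WT. Of the coverage of tRNA exons they held 89.8% and 89.2% in dPPRrbcL, against 96.2% and 96.3% in WT. The other 27 tRNAs went the other way: their share outside rRNA genes was 0.124% and 0.126% in dPPRrbcL, against 0.0735% and 0.0711% in WT, 1.73 times as high. Neither set overlapped between the groups. The exons of those 27 tRNAs occupy 1.65% of the positions outside rRNA genes, so in every library they were covered far below the average of that region. Set against protein-coding genes, the coverage of the other 27 was 0.193% and 0.199% in dPPRrbcL, against 0.227% and 0.188% in WT, and the groups overlapped (exact two-sided permutation p = 1). With rbcL left out of the protein-coding genes the values were 0.276% and 0.283% in dPPRrbcL, against 0.259% and 0.213% in WT.

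The denominator moves with the groups. Protein-coding genes made up 64.2% and 63.4% of the coverage outside rRNA genes in dPPRrbcL, against 32.3% and 37.8% in WT. The rRNA operon outside its rRNA genes made up 21.3% and 21.6% in dPPRrbcL, against 52.1% and 51.7% in WT. Of the whole summed coverage, tRNA exons held 0.118% and 0.10% in dPPRrbcL, against 0.0235% and 0.0301% in WT, so that the direction of the share turns with the denominator.

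The level of single tRNAs varied widely. trnA-UGC had the highest exon coverage in both groups, with 8033 and 7241 reads per nucleotide in dPPRrbcL, against 1813 and 1922 in WT. trnI-GAU was next, with 5641 and 4890 in dPPRrbcL, against 1291 and 1272 in WT. The order of this pair did not overlap within a group, and dPPRrbcL stood above WT in both tRNAs. No other tRNA exceeded 500 reads per nucleotide in a dPPRrbcL library or 55 in a WT library.

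**Figure D1:**
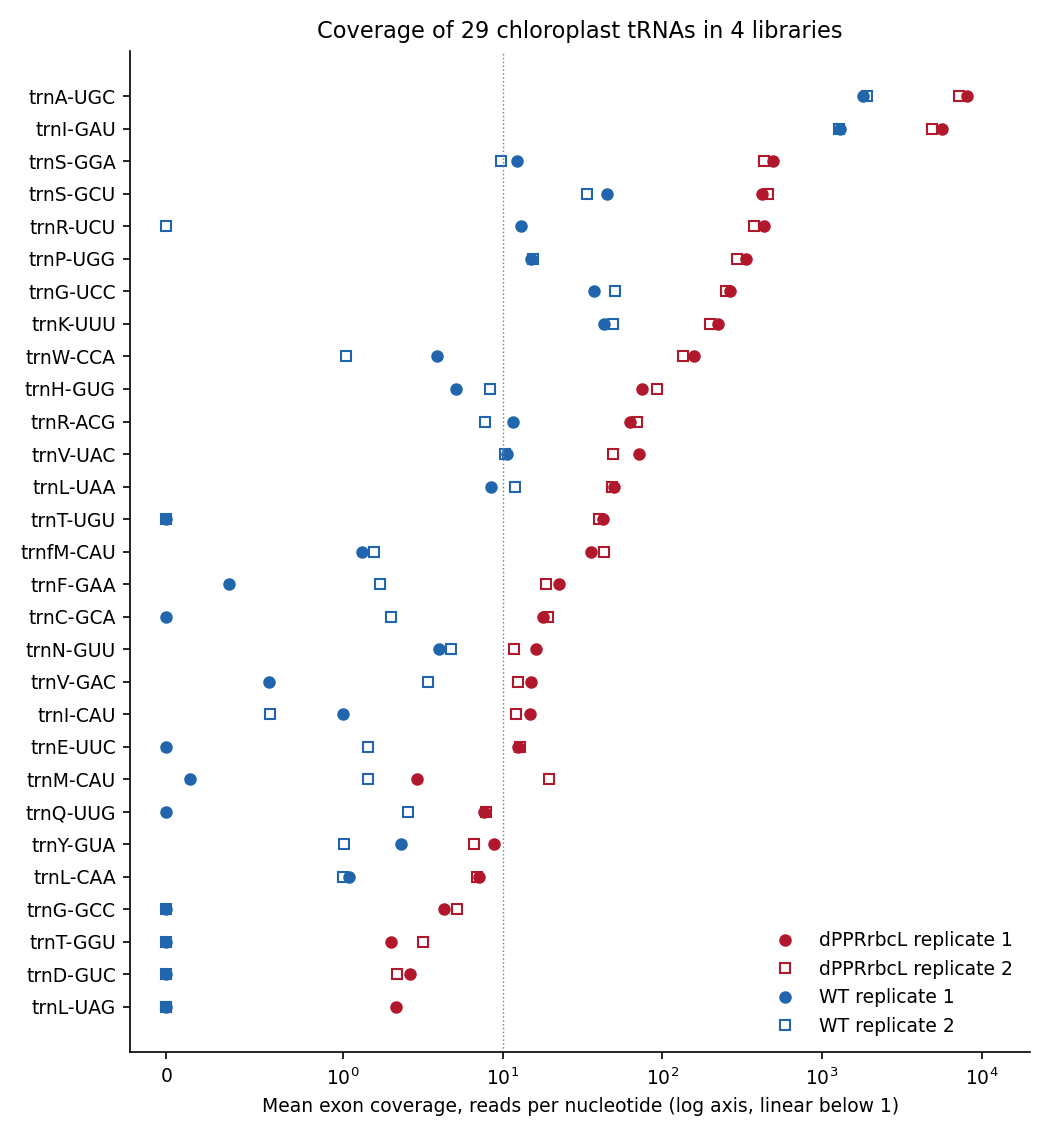
Mean exon coverage in reads per nucleotide (horizontal log axis, linear below 1) of the 29 tRNAs, ordered by the dPPRrbcL mean, with 1 point per library and a dotted line at 10. trnA-UGC and trnI-GAU stand above all others in each library, and several WT points lie at 0.

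In dPPRrbcL the next levels belonged to trnS-GGA and trnS-GCU, both serine tRNAs, and trnR-UCU, an arginine tRNA, which lay between 376 and 493 reads per nucleotide each overlapping the next in that order. trnP-UGG (proline), trnG-UCC (glycine), trnK-UUU (lysine) and trnW-CCA (tryptophan) followed, with 331 and 293, 264 and 250, 223 and 199, and 157 and 134 reads per nucleotide. In WT the levels after the operon pair belonged to trnK-UUU with 43.1 and 48.7, trnG-UCC with 37.4 and 50.2, and trnS-GCU with 44.8 and 33.7 reads per nucleotide, again overlapping. trnS-GGA and trnR-UCU, both among the 5 highest in dPPRrbcL, had only 12.2 and 9.78, and 13.1 and 0 reads per nucleotide in WT.

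At the low end, 13 tRNAs had a mean coverage under 10 over the 4 libraries and were not tested. trnL-UAG, a leucine tRNA, had 2.15 and 0 in dPPRrbcL and is listed at 0 in both WT libraries. trnD-GUC (aspartate) had 2.61 and 2.18 in dPPRrbcL, trnT-GGU (threonine) 2.00 and 3.17, and trnG-GCC (glycine) 4.25 and 5.17, and all are listed at 0 in both WT libraries. trnE-UUC, the glutamate tRNA from which plants also start the synthesis of chlorophyll, had 12.4 and 12.7 in dPPRrbcL, against 0 and 1.44 in WT. Its neighbour trnY-GUA (tyrosine) had 8.80 and 6.63 in dPPRrbcL, against 2.31 and 1.01 in WT. The elongator methionine tRNA trnM-CAU had 2.89 and 19.4 in dPPRrbcL, against 0.137 and 1.42 in WT, the widest ratio between replicates among tRNAs covered in both dPPRrbcL libraries. trnC-GCA (cysteine) had 17.8 and 19.0 in dPPRrbcL, against 0 and 2.00 in WT, and trnQ-UUG (glutamine) had 7.63 and 7.88 in dPPRrbcL, against 0 and 2.54 in WT. dPPRrbcL stood above WT without overlap in all of these but trnL-UAG. Scaled to the library total, 97.5% of all 120 features did the same.

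The remaining 4 untested tRNAs lie in the inverted repeat. trnI-CAU (isoleucine) had 14.8 and 12.0 reads per nucleotide in dPPRrbcL, against 1.00 and 0.588 in WT, and trnL-CAA (leucine) had 7.10 and 6.93 in dPPRrbcL, against 1.08 and 1.00 in WT. trnV-GAC (valine), which precedes the 16S rRNA gene, had 14.9 and 12.4 in dPPRrbcL, against 0.583 and 3.40 in WT. trnN-GUU (asparagine), beyond the end of the rRNA operon, had 16.2 and 11.7 in dPPRrbcL, against 3.97 and 4.75 in WT. Thus trnV-GAC, 231 nt from the 16S rRNA gene, had a coverage far below that of trnI-GAU on its other side.

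Scaled to the library total, dPPRrbcL stood above WT without overlap for 28 of the 29 tRNAs, where 97.5% of all 120 features did. Of the 16 tRNAs tested, 16 were higher in dPPRrbcL and 0 lower (limma, Benjamini-Hochberg adjusted p under 0.05). This is no result about tRNAs, since 98.1% of all 106 features tested were higher. With limma's p left unadjusted, 0 tRNAs were lower at 0.05 as well. These p-values rest mostly on the spread pooled over all features tested (10.5 prior against 2 residual degrees of freedom). They do not measure the replicate spread of a single tRNA alone. In 7 of the 16 the WT mean was under 10, so that they passed the filter through dPPRrbcL. The median of their log2 changes was 2.01, within a range of 1.27 to 4.56, beside a median of 3.0 for all features and 3.10 for protein-coding genes. Without trnT-UGU and trnR-UCU, which are listed at 0 in a WT library, the median was 1.92.

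Another scaling used the mean over positions that lie in neither rRNA nor tRNA genes as annotated (scaled without rRNA and tRNA). Those positions include the unannotated copy of the 5S rRNA gene. A further scaling used the median ratio over features. The median change of all features was 3.0 for the library total, 1.03 without rRNA and tRNA and 0.07 by the median ratio, and the tRNA calls moved with it. Scaled without rRNA and tRNA, 5 tRNAs were higher, 4 lower and 7 neither, with a median of 0.60. All features were then 66.0% higher and 14.2% lower. Without dPPRrbcL replicate 1 these tRNA counts were 4 higher and 3 lower, without dPPRrbcL replicate 2 they were 4 and 2, and without either WT library they were 8 and 5. By the median ratio 5 tRNAs were higher, 7 lower and 4 neither, with a median of -0.30, where 30.2% of all features were higher and 32.1% lower. Over all features the share of calls that were higher was 100% for the library total, 82.4% without rRNA and tRNA and 48.5% by the median ratio. Log2 changes below are signed within the scaling named, so a tRNA that rose can still lie below the median feature of that scaling.

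The log2 changes carry a pseudocount, a small value added before the logarithm. Scaled to the library total it was 0.1% of the library mean or 10.4 to 12.9 reads per nucleotide. Without rRNA and tRNA it amounted to 11.8 and 10.9 reads per nucleotide in dPPRrbcL, against 1.47 and 1.53 in WT. By the median ratio it amounted to 48.2 and 46.2 in dPPRrbcL, against 2.83 and 3.29 in WT. The pseudocount understates the change of poorly covered tRNAs. The log2 ratio of group means with no pseudocount, given here scaled to the library total, exists only for the 110 features covered in every library. It is a description with no test. By this ratio 14 of 20 tRNAs lay below the median feature, with a tRNA median of 2.67 against 3.83 for the 110 features, 4.04 for 79 protein-coding genes and 0.16 for 4 rRNA genes. Among the other genes of translation, the 21 ribosomal protein genes had a median of 4.47. All 21 of these were higher in the test scaled to the library total, as were 2 of 4 rRNA genes. Scaled without rRNA and tRNA, 18 ribosomal protein genes were higher and 1 lower, and by the median ratio 9 were higher and 2 lower.

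**Figure D2:**
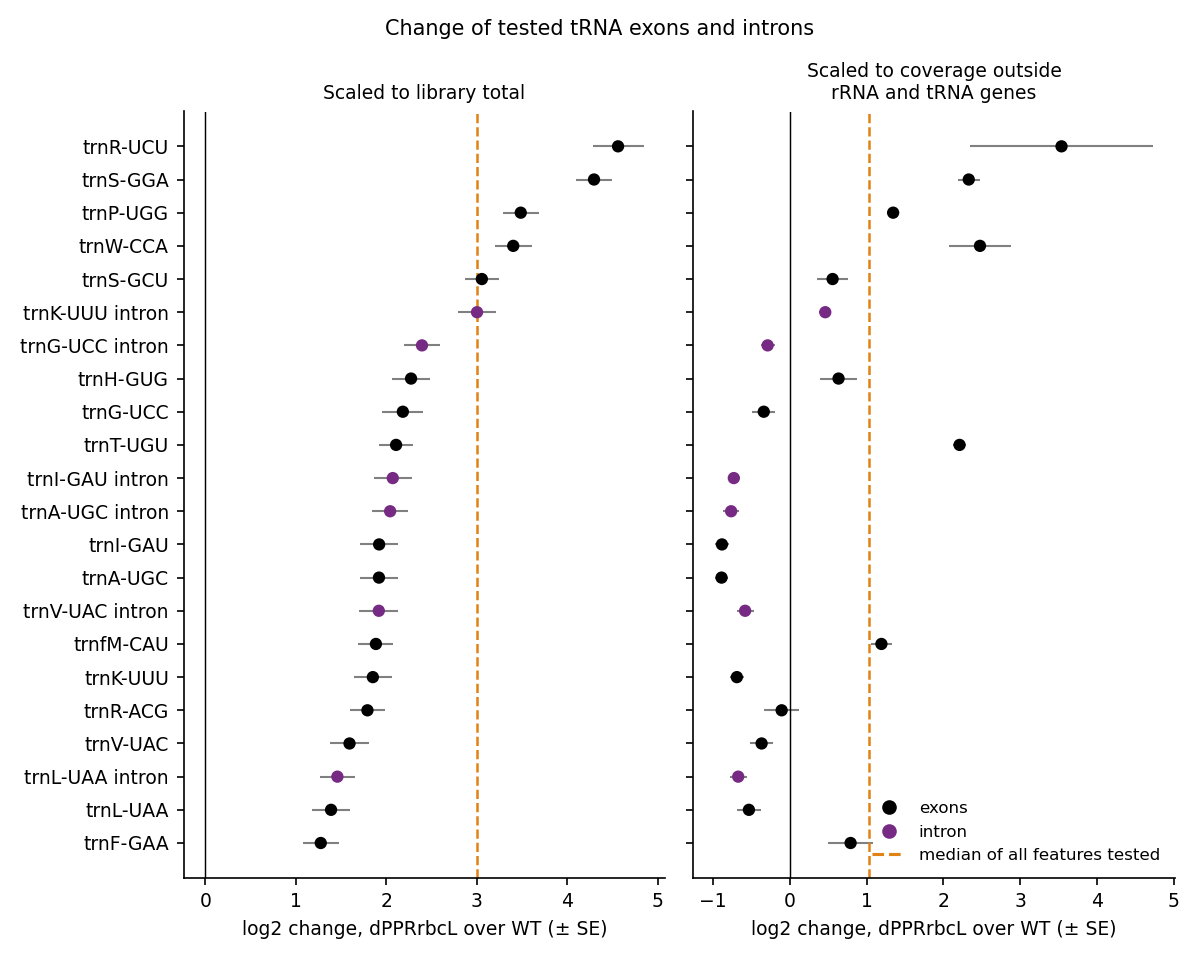
Log2 change, dPPRrbcL over WT, with the SE of the limma model for the tested tRNA exons (black) and the 6 introns (purple), scaled to the library total on the left and without rRNA and tRNA on the right. The dashed line is the median of all features tested, 3.0 on the left and 1.03 on the right, and the exons and introns of intron-containing genes lie left of it except the trnK-UUU intron on the left, which lies on it.

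Scaled to the library total, the 6 tRNAs with an intron had some of the lowest ratios, in a narrow band. With no pseudocount these ran from 1.91 to 2.42, with a median of 2.10, 1.73 below the median feature, and all 6 lay below it. Their ranks among the 110 features were 93 for trnG-UCC, 94 for trnV-UAC, 99 for trnL-UAA, 100 for trnK-UUU, 104 for trnI-GAU and 105 for trnA-UGC. The only features ranked after trnA-UGC were trnN-GUU, at rank 106, and the 4 rRNA genes. The 14 tRNAs without an intron that could be given a ratio spread from 1.55 to 5.87, with a median of 3.53, and 8 of them lay below the median feature. Scaled without rRNA and tRNA, 0 of the 6 with an intron were higher, 4 lower and 2 neither, against 5 higher and 0 lower of 10 tested without one. By the median ratio all 6 with an intron were lower, against 5 higher, 1 lower and 4 neither of the 10 without one. Of all features, 14.2% were lower without rRNA and tRNA and 32.1% by the median ratio. The difference between tRNAs with and without an intron was not tested, and the groups differ in WT coverage: none of the 6 had a WT mean under 10, against 7 of the 10. Those 7 passed the coverage filter through dPPRrbcL. They include trnT-UGU, trnfM-CAU and trnW-CCA of the 5 called higher, so these counts do not support a difference between the groups.

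Exons of trnK-UUU (1717 to 4347, minus strand) were higher by 1.85 (SE 0.21, limma adjusted p = 1.13e-06) when scaled to the library total, and changed by -0.69 (SE 0.09, limma adjusted p = 0.00364) when scaled without rRNA and tRNA. trnL-UAA (46894 to 47490, plus strand), whose exons had 49.5 and 48.4 reads per nucleotide in dPPRrbcL, against 8.40 and 11.9 in WT, rose by 1.39 (limma adjusted p = 1.73e-05) and changed by -0.53 (limma adjusted p = 0.0395) under the same scalings. The call without rRNA and tRNA was lost with a pseudocount of 10%, which gave -0.23 (limma adjusted p = 0.0569). trnV-UAC (51199 to 51871, minus strand) had 70.9 and 49.3 in dPPRrbcL, against 10.7 and 10.4 in WT. Its log2 changes were 1.59 (limma adjusted p = 6.94e-06) for the library total and -0.37 (limma adjusted p = 0.0845) without rRNA and tRNA. trnG-UCC (8646 to 9431, plus strand) gave 2.18 (limma adjusted p = 3.97e-07) and -0.34 (limma adjusted p = 0.0985). In these genes dPPRrbcL exons stood above WT exons in unscaled coverage, with no overlap. When scaled to the library total, 97.5% of all 120 features stood above WT with no overlap.

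trnI-GAU (102801 to 103601, plus strand, and 135048 to 135848, minus strand) and trnA-UGC (103665 to 104538 and 134111 to 134984) changed almost equally. Scaled to the library total they rose by 1.92 each (SE 0.21, limma adjusted p = 6.20e-07 and 7.81e-07). Scaled without rRNA and tRNA they fell by 0.89 each (SE 0.09 and 0.08, limma adjusted p = 0.00205 and 0.00144). These 2 tRNAs of the rRNA operon thus lay between the protein-coding genes, with a median of 3.10, and the rRNA genes, with a median of 0.16, when scaled to the library total.

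The spacer around this pair was covered as well. Between the 16S rRNA gene and trnI-GAU, 298 nt had 5813 and 5527 reads per nucleotide in dPPRrbcL, against 1580 and 1910 in WT. Between trnI-GAU and trnA-UGC, 63 nt had 6848 and 5822 in dPPRrbcL, against 1461 and 1406 in WT. Both stretches lay above the exon levels of trnI-GAU in every library. From trnA-UGC to the 23S rRNA gene, 152 nt had 14838 and 15100 in dPPRrbcL, against 7584 and 8601 in WT, above both tRNAs in every library. The trnI-GAU intron had 4585 and 4103 in dPPRrbcL, against 925 and 977 in WT, and the trnA-UGC intron 7242 and 6964 in dPPRrbcL, against 1652 and 1539 in WT. Both introns lay below their exons in every library.

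**Figure D3:**
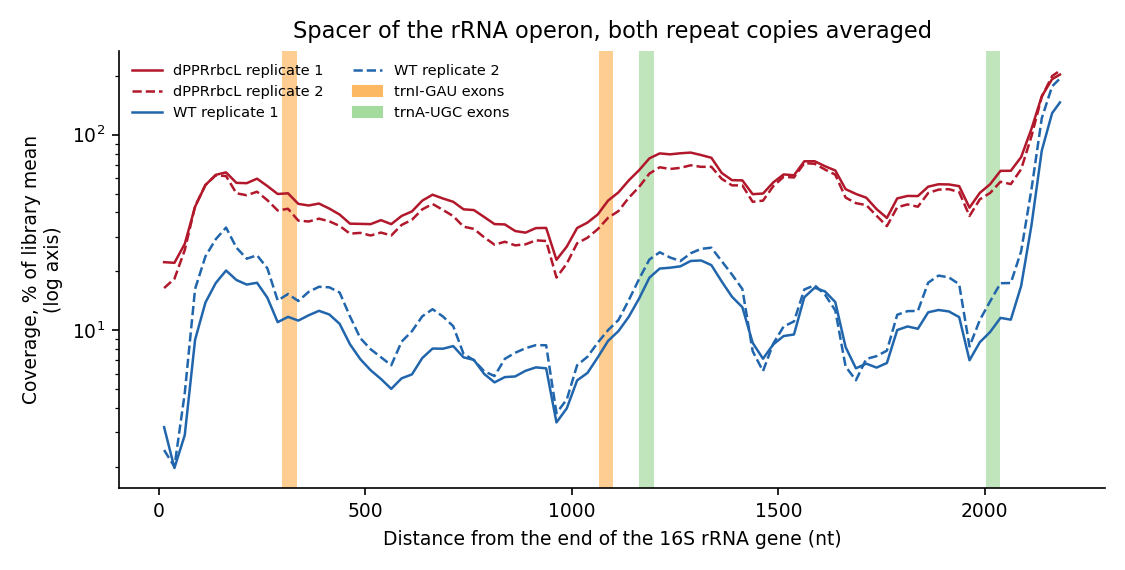
Coverage as percent of the library mean (log axis) in bins of 25 nt over the 2188 nt between the 16S and 23S rRNA genes, with both repeat copies averaged and 1 line per library. dPPRrbcL lines run above WT lines, and coverage continues through the shaded exons of trnI-GAU (orange) and trnA-UGC (green).

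Among tRNAs without an intron, 4 had the highest fitted changes scaled to the library total. trnR-UCU (9590 to 9661, plus strand) had 434 and 376 reads per nucleotide in dPPRrbcL, against 13.1 and 0 in WT. Its fitted log2 change of 4.56 (SE 0.28, limma adjusted p = 2.66e-09) follows the pseudocount, from 2.02 with 1% to 6.61 with 0.01% of the library mean, and WT replicate 2 is listed at 0. Scaled without rRNA and tRNA it was 3.54 with an SE of 1.19 and missed the threshold (limma adjusted p = 0.0532). trnS-GGA (44827 to 44913, plus strand) had 493 and 434 in dPPRrbcL, against 12.2 and 9.78 in WT, and rose by 4.29 (SE 0.20, limma adjusted p = 3.09e-10). It stayed higher with 2.33 (limma adjusted p = 0.000665) without rRNA and tRNA and 1.24 (limma adjusted p = 0.00447) by the median ratio.

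trnP-UGG (66490 to 66563, minus strand) had 331 and 293 reads per nucleotide in dPPRrbcL, against 15.0 and 15.6 in WT. It rose by 3.48 (SE 0.20, limma adjusted p = 1.47e-09), and by 1.35 and 0.34 under the other scalings (limma adjusted p = 0.000665 and 0.0426). Its neighbour trnW-CCA (66229 to 66302, minus strand) had 157 and 134 in dPPRrbcL, against 3.86 and 1.04 in WT. It rose by 3.40 (SE 0.20, limma adjusted p = 2.01e-09) scaled to the library total, by 2.48 (limma adjusted p = 0.00701) without rRNA and tRNA and by 1.21 (limma adjusted p = 0.0297) by the median ratio. By the ratio with no pseudocount trnW-CCA reached 5.87, rank 2 of the 110 features, and trnS-GGA 5.30, rank 10. Both WT values of trnW-CCA are low, so this rank rests on few reads.

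trnT-UGU (46213 to 46285, minus strand), a threonine tRNA, reached 42.2 and 40.2 reads per nucleotide in dPPRrbcL libraries and is listed at 0 in both WT libraries. trnfM-CAU (36704 to 36777, minus strand), the initiator tRNA, had 35.7 and 43.2 in dPPRrbcL, against 1.31 and 1.55 in WT. It was higher under each scaling, by 1.88 for the library total, 1.19 without rRNA and tRNA and 0.32 by the median ratio (limma adjusted p = 3.80e-07, 0.0026 and 0.0450). These, with trnS-GGA, trnP-UGG and trnW-CCA, were the 5 of 16 tRNAs called higher under all 3 scalings. They were also all those called higher by the median ratio, where 30.2% of all 106 features were higher. The count is therefore no result about tRNAs. trnT-UGU, trnfM-CAU and trnW-CCA, like trnR-UCU above, passed the coverage filter through dPPRrbcL, so their calls do not support a difference. The fitted change of trnT-UGU was 0.41 with a pseudocount of 1% and 5.09 with 0.01%.

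trnS-GCU, with 419 and 459 reads per nucleotide in dPPRrbcL, against 44.8 and 33.7 in WT, rose by 3.05 (SE 0.19, limma adjusted p = 2.93e-09), near the median feature, and missed the threshold under the other scalings, with 0.56 without rRNA and tRNA and -0.42 by the median ratio (limma adjusted p = 0.0609 and 0.168). trnH-GUG (4 to 76, minus strand), the histidine tRNA, had 74.7 and 91.8 in dPPRrbcL, against 5.05 and 8.32 in WT, and rose by 2.27 (limma adjusted p = 1.14e-07), less than the median feature. It missed the threshold with 0.63 without rRNA and tRNA and with -0.18 by the median ratio (limma adjusted p = 0.0726 and 0.378). trnR-ACG (108302 to 108375, plus strand, and 130274 to 130347, minus strand), the arginine tRNA beyond the end of the rRNA operon, had 63.0 and 69.1 in dPPRrbcL, against 11.5 and 7.76 in WT. It rose by 1.79 (SE 0.19, limma adjusted p = 6.09e-07), but its log2 change was -0.11 and not past the threshold (limma adjusted p = 0.677) when scaled without rRNA and tRNA. trnF-GAA (48175 to 48247, plus strand), the phenylalanine tRNA, had 22.4 and 18.7 in dPPRrbcL, against 0.356 and 1.70 in WT. Its fitted change of 1.27 was the lowest of the 16, although its ratio with no pseudocount was 4.11, above the median feature. trnH-GUG, trnR-ACG and trnF-GAA also passed the coverage filter through dPPRrbcL, so their calls do not support a difference either.

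By location, the 7 tRNAs of the inverted repeat had a median ratio of 2.56 with no pseudocount, against 3.48 for the 13 single-copy tRNAs covered in every library. Outside the rRNA operon the median of 18 tRNAs was 3.04. Within the repeat the lowest ratio was that of trnN-GUU at 1.55 and the highest that of trnI-CAU at 4.01. None of these groups was tested against another.

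Coverage of exons relative to their own intron compares both within a library and needs no scaling. trnK-UUU differed most. Its exons had 223 and 199 reads per nucleotide in dPPRrbcL, against 43.1 and 48.7 in WT, and its intron 511 and 463 in dPPRrbcL, against 44.8 and 47.7 in WT. The ratio of exons to intron was 0.433 ± 0.0062 in dPPRrbcL and 0.991 ± 0.0408 in WT (SD, n = 2 each), a difference of -1.19 on the log2 scale with no overlap (exact two-sided permutation p = 0.333, the smallest possible). Its intron rose by 3.0 (SE 0.21, limma adjusted p = 6.01e-09) scaled to the library total and was the only tRNA intron that was higher, by 0.46 (limma adjusted p = 0.00812), when scaled without rRNA and tRNA.

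The trnK-UUU intron contains matK, the gene of a maturase that assists splicing of plastid introns, and intron and matK reads cannot be told apart there. matK had 486 and 433 reads per nucleotide in dPPRrbcL, against 24.2 and 30.5 in WT, and its log2 change was 3.49 scaled to the library total. The intron 5′ of matK had 624 and 595 in dPPRrbcL, against 89.4 and 85.8 in WT, and the intron 3′ of matK had 359 and 295 in dPPRrbcL, against 38.2 and 40.6 in WT. With matK and 20 nt beside each exon left out, the ratio of exons to intron was 0.403 and 0.386 in dPPRrbcL, against 0.579 and 0.674 in WT, a log2 difference of -0.66, again with no overlap. The 5′ exon of trnK-UUU had 371 and 340 in dPPRrbcL, against 75.5 and 90.2 in WT, and the 3′ exon 67.9 and 48.9 in dPPRrbcL, against 8.74 and 4.71 in WT. The 3′ exon was thus the less covered end in every library.

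**Figure D4:**
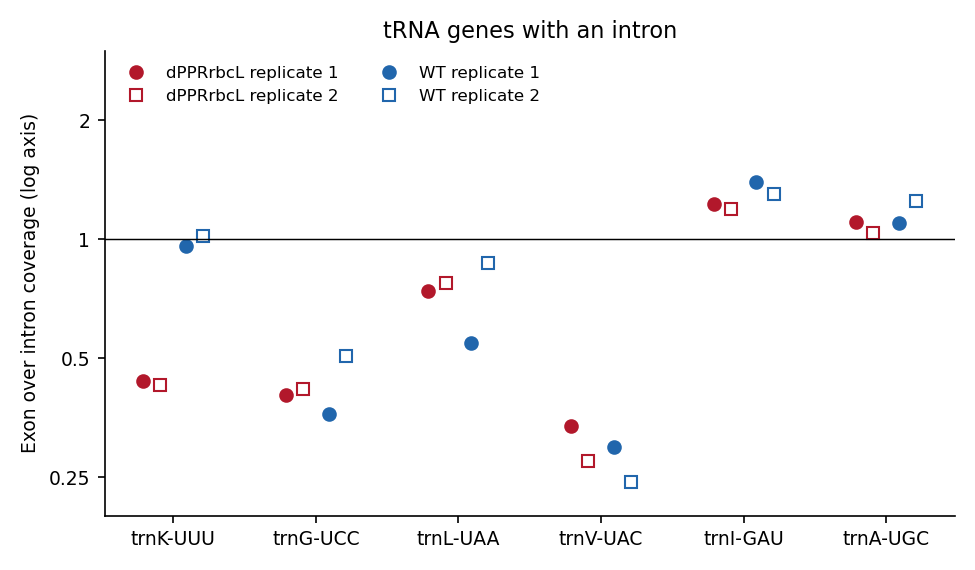
Ratio of mean exon to mean intron coverage (log axis) of the 6 tRNA genes with an intron, 1 point per library. trnK-UUU lies near 0.43 in dPPRrbcL and near 0.99 in WT, while in trnG-UCC, trnL-UAA, trnV-UAC and trnA-UGC the groups overlap.

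trnG-UCC had more intron than exon coverage in every library. Its exons had 264 and 250 reads per nucleotide in dPPRrbcL, against 37.4 and 50.2 in WT, and its intron 654 and 597 in dPPRrbcL, against 103 and 98.8 in WT. The ratio was 0.412 in dPPRrbcL and 0.435 in WT, with overlap (exact two-sided permutation p = 1). trnV-UAC had the lowest ratios of all, 0.306 in dPPRrbcL and 0.270 in WT (exact two-sided permutation p = 0.667), its intron standing at 211 and 179 in dPPRrbcL, against 35.8 and 42.7 in WT. trnL-UAA, the group I intron gene, had 0.758 in dPPRrbcL and 0.710 in WT (exact two-sided permutation p = 1), with 66.9 and 62.4 in its intron in dPPRrbcL, against 15.4 and 13.7 in WT. In these 3 genes the groups overlapped. In trnA-UGC they did too, at 1.07 in dPPRrbcL and 1.17 in WT (exact two-sided permutation p = 0.667). This overlap rests on the mean coverage: with the median coverage of exons and intron the groups separated in all 4. The log2 difference was then 0.34 instead of -0.06 in trnG-UCC, -0.47 instead of 0.13 in trnL-UAA, 0.34 instead of 0.18 in trnV-UAC and -0.20 instead of -0.12 in trnA-UGC (exact two-sided permutation p = 0.333 each).

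trnI-GAU had 1.21 ± 0.0272 in dPPRrbcL and 1.35 ± 0.0657 in WT (SD, n = 2 each; exact two-sided permutation p = 0.333), and here the groups did not overlap, the log2 difference being -0.15, or -0.35 with the median coverage. The median log2 ratio over the 6 genes was -0.814 and -0.794 in dPPRrbcL, against -0.463 and -0.0836 in WT, a difference of -0.531 (exact two-sided permutation p = 0.333) that was -0.341 without WT replicate 2. With matK and 20 nt beside each exon left out of the introns it was -0.275. Intron coverage was thus at or above exon coverage in trnG-UCC, trnV-UAC and trnL-UAA in all 4 libraries and below it in the operon pair.

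Exons were also set against the 100 nt on each side of the gene. Over the 20 tRNAs covered in every library the median ratio of exons to flanks was 0.964 ± 0.0337 in dPPRrbcL and 0.981 ± 0.191 in WT (SD, n = 2 each; exact two-sided permutation p = 1). Single tRNAs lay on both sides of this median: in dPPRrbcL replicate 1 their ratios ran from 0.0410 in trnM-CAU to 3.12 in trnG-UCC. Exons lay above both flanks in both dPPRrbcL libraries for 9 of 29 tRNAs, and in both WT libraries for 6. They were below both flanks in both dPPRrbcL libraries for trnD-GUC, trnM-CAU and trnI-GAU, and in both WT libraries for trnI-GAU. More than 2 times both flanks was reached by trnG-UCC in both dPPRrbcL libraries, and by trnK-UUU, trnG-UCC and trnL-UAA in both WT libraries.

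**Figure D5:**
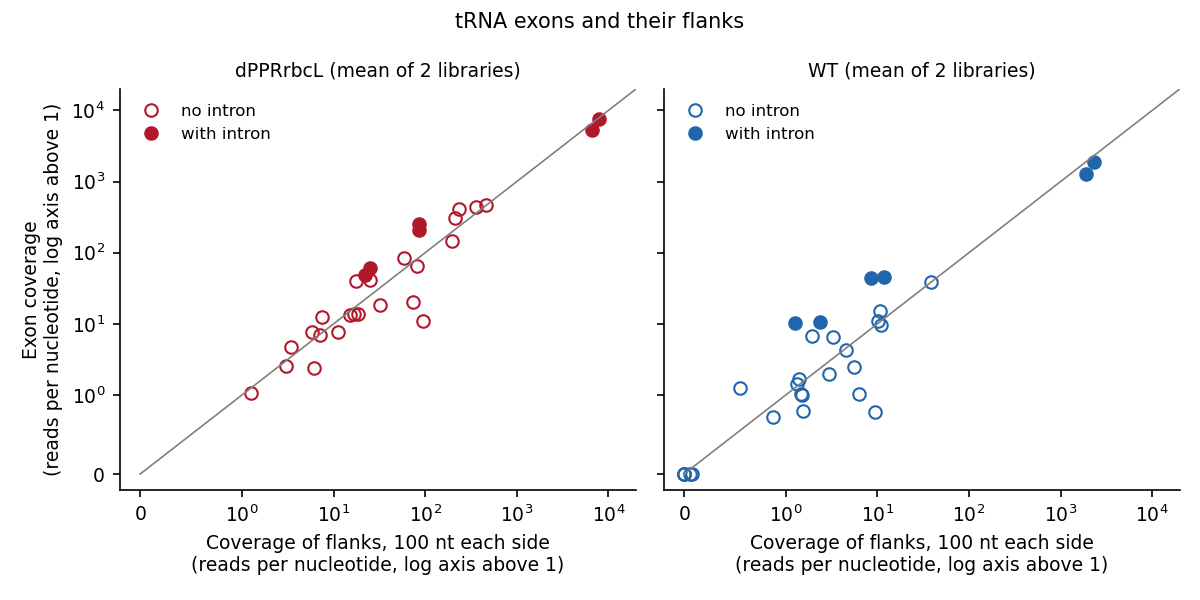
Exon coverage against the mean coverage of the 100 nt on each side (log axes, linear below 1) for the 29 tRNAs, dPPRrbcL on the left and WT on the right, as means of 2 libraries, with the line of equality. tRNAs lie on both sides of the line, and the 4 single-copy genes with an intron (filled points below 1000) lie above it in both groups.

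Across the 29 tRNAs, exon coverage followed flank coverage with Spearman's rho of 0.915 and 0.937 in dPPRrbcL and 0.856 and 0.804 in WT. Without the operon pair it was 0.894 and 0.922 in dPPRrbcL and 0.822 and 0.756 in WT. These are descriptions across genes of 1 library, since exon and flank share that library's depth and any read that spans the boundary. Exons of trnS-GGA, at 493 and 434 reads per nucleotide in dPPRrbcL, had flanks of 513 and 537 upstream and 413 and 401 downstream. In trnM-CAU the downstream flank, on the side of atpE, had 138 and 215 in dPPRrbcL, against 21.4 and 14.0 in WT, far above its exon in every library.

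The nearest protein-coding gene is given beside 7 members, chosen after their values were seen, and strands cannot be separated. trnS-GCU, 91 nt from psbI, a photosystem II subunit gene, changed by 3.05 where psbI changed by 3.18, scaled to the library total. trnW-CCA, 117 nt from petG of the cytochrome b6f complex, changed by 3.40 and petG by 3.43. trnS-GGA changed by 4.29 and ycf3, a photosystem I assembly gene 235 nt away, by 3.89. Others differed from their neighbour in this fitted change. trnK-UUU changed by 1.85 and psbA, the gene of the D1 protein 272 nt away, by 4.09. trnR-UCU changed by 4.56 and atpA, an ATP synthase gene 276 nt away, by 2.95. trnfM-CAU changed by 1.88 and rps14, a ribosomal protein gene 160 nt away, by 4.30. trnH-GUG changed by 2.27 and psbA, which lies 306 nt from it, by 4.09. The ratio with no pseudocount was 5.87 for trnW-CCA, 5.30 for trnS-GGA, 4.65 for trnfM-CAU, 3.48 for trnH-GUG, 3.39 for trnS-GCU and 2.08 for trnK-UUU. It is not given for the neighbours. rps14 had 1283 and 1291 reads per nucleotide in dPPRrbcL, against 46.8 and 52.0 in WT, where trnfM-CAU had 1.31 and 1.55, below the pseudocount. petG had 290 and 251 in dPPRrbcL, against 14.6 and 11.1 in WT, where trnW-CCA had 3.86 and 1.04. The pseudocount thus lowers the changes within these pairs unequally. Which pairs look alike or unlike holds for the fitted changes only and is no result about the pairs.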

How the data were processed

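RNA from 2 dPPRrbcL and 2 WT immunoprecipitations was sequenced, from 50 ng of RNA with a NEBNext Ultra II kit per the labels' protocols. The authors deposited, per the file headers, a signal for each chloroplast position: the read coverage in reads per nucleotide, as whole numbers with no normalization recorded. Mapper, build and use of strand are not given in the sources used here. All files covered positions 1 to 154478, the length of the chloroplast sequence of TAIR10.1, whose annotation was used (1-based). Summed over positions this came to 1879536484 and 1971451856 nt in dPPRrbcL, against 1995360151 and 1602408234 nt in WT. Read numbers are unknown, so no counting interval was computed, and the 2 libraries per group limit the precision. WT libraries held equal values at 16.3% of positions and dPPRrbcL libraries at 2.47%, so replicates were distinct.

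Gene intervals were reduced to 120 features: repeat copies were averaged, and tRNA genes with an intron were split into exons and intron. Mean coverage was scaled to the library mean, 0.1% of that mean was added, and log2 was taken. An earlier look at these data used 1%, which is far above most tRNA coverage. The 106 features with a mean coverage of at least 10 were tested with limma 3.58.1 (lmFit, eBayes) in R 4.3.3 with Benjamini-Hochberg adjustment at 0.05, dPPRrbcL against WT. The limma fit was tested on simulated data with known changes of some features in both directions. Scaled to the library total, nearly all features here shifted the same way, so the simulation does not address the choice of scaling. Shares and ratios within a library were compared by exact two-sided permutation. The inverted repeat spans 84171 to 110434 and 128215 to 154478, and the rRNA operon 101012 to 108069 and 130580 to 137637. Alternatives were other scalings, pseudocounts, filters, denominators and flanks, and leaving out each library. The ratio with no pseudocount, the crossed pairing, and leaving out libraries under the second scaling were chosen after seeing the data. Members and lists were chosen with earlier results of these data known. Every tRNA was named, with full values for those with an intron, those near the rRNA operon, the 5 highest and 5 lowest changes, and the most covered. Features, shares and permutation tests were computed in Python 3.11.15 (pandas 2.3.3, numpy 2.4.6, scipy 1.17.1) and drawn with matplotlib 3.10.9.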

Additional observations from a re-analysis of the deposited data

How the results depend on the processing

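The number of tRNAs higher in dPPRrbcL, 16, was 5 with median-ratio scaling, 5 and 7 without rRNA and tRNA with pseudocounts of 1% and 10%, 6 when the replicate block was added at 1%, 25 of 29 tested with no filter and 8 of 8 tested with a minimum coverage of 100. The number lower, 0, was 7 with median-ratio scaling, 4 and 3 with those pseudocounts and 3 with that replicate block. Leaving out each library while scaling without rRNA and tRNA gave 4 to 8 higher and 2 to 5 lower, the lone library of a group being assumed to vary like the others. Scaled to the library total, leaving out each library gave 16 higher, and the replicate block and the crossed block gave 16 each. Deviations of same-numbered libraries from their group means had a correlation of -0.37 over 106 features. With 2 libraries per group this cannot show whether the replicate numbers mark a pairing. The share difference of -0.717 percentage points was 0.0821 of the whole summed coverage, -3.61 relative to protein-coding genes and -6.30 with introns included, with -0.740 to -0.694 as the range over fits lacking 1 library. The exon to intron difference of -0.531 had a range of -0.720 to -0.341 over the same omissions, and was -0.275 with trimmed introns without matK and -0.704 with median coverage. The flank ratio difference kept within the spread. Log2 changes that turned negative by the median ratio were -0.18 for trnH-GUG, -1.55 for trnK-UUU, -0.51 for trnK-UUU intron, -0.42 for trnS-GCU, -1.24 for trnG-UCC, -1.26 for trnG-UCC intron, -1.07 for trnL-UAA, -1.28 for trnL-UAA intron, -0.98 for trnV-UAC, -1.43 for trnV-UAC intron, -1.91 for trnI-GAU, -1.75 for trnI-GAU intron, -1.91 for trnA-UGC, -1.79 for trnA-UGC intron and -0.78 for trnR-ACG. Scaled without rRNA and tRNA with a 1% pseudocount they were -0.69 for trnK-UUU, -0.34 for trnG-UCC, -0.29 for trnG-UCC intron, -0.53 for trnL-UAA, -0.67 for trnL-UAA intron, -0.37 for trnV-UAC, -0.58 for trnV-UAC intron, -0.89 for trnI-GAU, -0.73 for trnI-GAU intron, -0.89 for trnA-UGC, -0.77 for trnA-UGC intron and -0.11 for trnR-ACG. With 10% they were -0.51 for trnK-UUU, -0.26 for trnG-UCC, -0.25 for trnG-UCC intron, -0.23 for trnL-UAA, -0.33 for trnL-UAA intron, -0.16 for trnV-UAC, -0.41 for trnV-UAC intron, -0.87 for trnI-GAU, -0.72 for trnI-GAU intron, -0.88 for trnA-UGC, -0.76 for trnA-UGC intron and -0.0528 for trnR-ACG. Adding the replicate block at 1% left the values at 1% as they were, to 2 decimals, but trnH-GUG was then called higher (limma adjusted p = 0.0244), and trnL-UAA and the trnG-UCC intron were not called (0.0519 and 0.0863). With 10%, trnR-UCU (1.73) and trnS-GCU (0.43) were called higher (limma adjusted p = 0.00661 and 0.0425). The scalings differ by construction, each setting another part of the library as the constant. Read numbers and strand are not known, low tRNAs rest on few reads in WT, and 2 libraries per group cannot give an exact p under 0.333.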
